A study of Mus musculus with 4 samples.

Results

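The 38 genes described here are a fixed list of cell cycle genes, matched by symbol among the 32285 genes measured by single-cell RNA-Seq of tibial fracture callus in mice. The list holds 24 genes whose products act in G2 and mitosis (the G2/M members) and 14 that act at the entry into S phase or in DNA synthesis (the G1/S members), and a symbol was found for each of the 38. The study asked how systemic inflammation changes the cells of the callus. It used C57BL/6J wild-type mice 3 months old (males, per the study's methods) with a tibial fracture, and K/BxN serum, which transfers an arthritis driven by autoantibodies, as a model of rheumatoid arthritis (RA). The 4 libraries were control_4d and control_7d, from vehicle-treated mice at 4 and 7 days after fracture (dpf), and RA_4d and RA_7d, from serum-treated mice at the same times. Each library was 1 pool of calluses with 10000 cells loaded, so that condition, pool and library cannot be told apart and no test between conditions was possible. Intervals given in brackets after a share or a ratio are exact 95% intervals and cover counting error only.

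A dividing cell copies its DNA in S phase and parts the copies in mitosis. The MCM proteins, loaded at replication origins in G1, open the DNA for copying, and E2F factors switch on their genes together with those for nucleotide supply. Later, cyclin A and cyclin B bind Cdk1, the mitotic spindle is built by kinesins and checked at the kinetochores, and the anaphase-promoting complex ends mitosis by marking cyclin B and other proteins for destruction. Transcripts of the G2/M members build up late in the cycle and are low in resting cells, whereas several G1/S members, Pcna among them, also serve DNA repair. Fracture callus grows by division of periosteal progenitors, of blood vessel cells and of infiltrating myeloid cells.

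Promoter windows of the members are described first, since the G1/S and G2/M members are read apart throughout. RefSeq windows of GRCm38.p6, the build of the files, were matched for 20 of the 24 G2/M and 11 of the 14 G1/S members. The 250 bases before the RefSeq transcript start were searched on both strands for the cell cycle homology element (CHR, TTTGAA) and the CCAAT box (CCAAT). So were 2 forms of the E2F site (TTTCCCGC and TTTGGCGC). A CHR and a CCAAT box stood together in 7 of the 20 G2/M windows (35%), in 1 of 11 G1/S members (9.09%) and in 6.45% of the 27025 genes with a window. A CCAAT box was found in 18 of 20 G2/M members (90%), 7 of 11 G1/S members (63.6%) and 37.5% of all genes. Either E2F form was found in 0 of 20 G2/M members, in 4 of 11 G1/S members (36.4%), namely Mcm5, Mcm6, Mcm7 and Cdc6, and in 1.51% of all genes. The 7 G2/M members with both elements were Mki67, Top2a, Cdk1, Ccnb2, Kif11, Ube2c and Cdc20. The windows of Mcm7, Cdc6 and E2f1 lay wholly inside the annotated span of their gene, and some others overlapped it in part. For Mcm7, Cdc6 and E2f1 the search thus does not describe bases upstream of the whole gene. A match of letters describes the window and says nothing of binding.

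The windows of Mki67 (chr7:135716380-135716629, minus strand), Top2a (chr11:99024190-99024439, minus strand), Ube2c (chr2:164769679-164769928, plus strand) and Cdc20 (chr4:118437344-118437593, minus strand) show the pair of elements found in the G2/M members, and those of Mcm6 (chr1:128359706-128359955, minus strand) and Cdc6 (chr11:98907901-98908150, plus strand) show the E2F letters found in the G1/S members. Each is printed 5′ to 3′ on the strand of its gene, and capitals mark the searched motifs on either strand (TTCAAA and ATTGG are the CHR and the CCAAT box read on the opposite strand). The first pair of genes defines a cycling cell below, and Ube2c and Cdc20 act together at the end of mitosis.
Mki67: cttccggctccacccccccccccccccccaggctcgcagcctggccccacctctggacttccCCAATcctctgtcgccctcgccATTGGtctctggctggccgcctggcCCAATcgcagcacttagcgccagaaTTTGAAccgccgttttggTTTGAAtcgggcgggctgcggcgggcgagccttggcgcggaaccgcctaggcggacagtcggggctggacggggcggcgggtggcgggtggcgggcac
Top2a: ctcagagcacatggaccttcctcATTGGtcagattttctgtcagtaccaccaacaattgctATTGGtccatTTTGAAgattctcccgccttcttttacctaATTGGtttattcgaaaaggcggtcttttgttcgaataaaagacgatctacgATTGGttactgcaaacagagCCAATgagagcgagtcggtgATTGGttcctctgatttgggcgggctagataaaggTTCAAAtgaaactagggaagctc
Ube2c: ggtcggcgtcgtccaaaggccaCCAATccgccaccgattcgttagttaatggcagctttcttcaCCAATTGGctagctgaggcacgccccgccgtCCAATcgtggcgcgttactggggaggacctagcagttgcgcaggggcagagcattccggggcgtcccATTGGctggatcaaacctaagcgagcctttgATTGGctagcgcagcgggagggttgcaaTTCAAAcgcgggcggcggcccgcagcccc
Cdc20: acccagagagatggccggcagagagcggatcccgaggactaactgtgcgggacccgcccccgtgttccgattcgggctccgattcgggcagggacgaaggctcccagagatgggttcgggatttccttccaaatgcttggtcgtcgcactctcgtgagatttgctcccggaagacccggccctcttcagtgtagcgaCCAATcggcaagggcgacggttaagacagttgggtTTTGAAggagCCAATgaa
Mcm6: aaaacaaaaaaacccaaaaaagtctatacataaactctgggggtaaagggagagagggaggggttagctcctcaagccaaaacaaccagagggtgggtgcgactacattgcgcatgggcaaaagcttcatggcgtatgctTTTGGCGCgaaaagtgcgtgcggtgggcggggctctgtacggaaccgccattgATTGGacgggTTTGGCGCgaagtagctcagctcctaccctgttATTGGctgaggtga
Cdc6: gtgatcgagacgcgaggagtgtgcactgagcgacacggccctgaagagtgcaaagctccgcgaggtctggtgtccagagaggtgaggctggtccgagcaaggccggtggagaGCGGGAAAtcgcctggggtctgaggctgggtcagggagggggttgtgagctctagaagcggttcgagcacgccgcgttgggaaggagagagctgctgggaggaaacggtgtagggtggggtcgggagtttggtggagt

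After the study's filter (4000 to 50000 UMIs, 2000 to 7000 genes and at most 8% mitochondrial UMIs per cell), 25479 of 34038 barcodes were kept, 4110 to 8223 per library, with median depths of 16094 to 17632 UMIs. Between 5 and 15 barcodes were shared by each of the 6 pairs of libraries, and 2.39% of the kept cells were called doublets, from 0.9% to 3.53% per library. Clustering without cell cycle genes gave 29 clusters in 21 classes. Of these, 17 were named from marker genes, with "-like" for a name rebuilt here, and 4 whose leading genes or markers gave no name are called by their top genes. Classes were joined into lineages (mesenchymal, myeloid, endothelial and smaller ones). A cell with at least 2 Mki67 and at least 1 Top2a UMIs was called cycling. Levels are CPM, the UMIs of a gene or list over all UMIs of the same group of cells, scaled to the usual common total.

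Among all kept cells, 1392 were cycling (5.46%). The share of cycling cells was 6.71% (6.06 to 7.4) at 4 dpf and 5.05% (4.58 to 5.57) at 7 dpf in the control libraries, and 10.5% and 2.51% at the same times in the RA libraries. It was thus highest in RA_4d and lowest in RA_7d. Of the 431 cycling cells of RA_4d, however, 25.1% were neutrophil-like cells. With the neutrophil-like cells left out, the RA share over the control share came to 1.27 (1.09 to 1.49) at 4 dpf in place of 1.56 (1.36 to 1.8), and 0.471 (0.394 to 0.563) at 7 dpf in place of 0.496 (0.417 to 0.588).

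The cells chosen by Mki67 and Top2a were also rich in the other members, which the choice did not use. Of the 22 G2/M members other than Mki67 and Top2a, the median cycling cell had 17 detected and the median other cell 1, and of the 14 G1/S members 9 against 2. Cycling cells were deeper (median 29363 against 16240 UMIs), so that detection was also compared after thinning each cell to 4000 UMIs. Birc5, a subunit of the complex that corrects chromosome attachment, was then detected in 58.8% of cycling and 2.76% of other cells. Ube2c, the ubiquitin-conjugating enzyme of the anaphase-promoting complex, was detected in 47% against 1.81%, and Cdk1, the kinase of mitotic entry, in 41.7% against 3.37%. The G1/S members parted the cells less. The rule uses G2/M members alone, so cells at the entry into S phase can lie among the other cells. A weaker contrast of the G1/S members was thus favoured by the rule itself. Rrm2, a subunit of ribonucleotide reductase, was detected in 32.9% against 1.91%, but Pcna, the sliding clamp of DNA polymerase, in 57% against 35%.

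**Figure D1:**
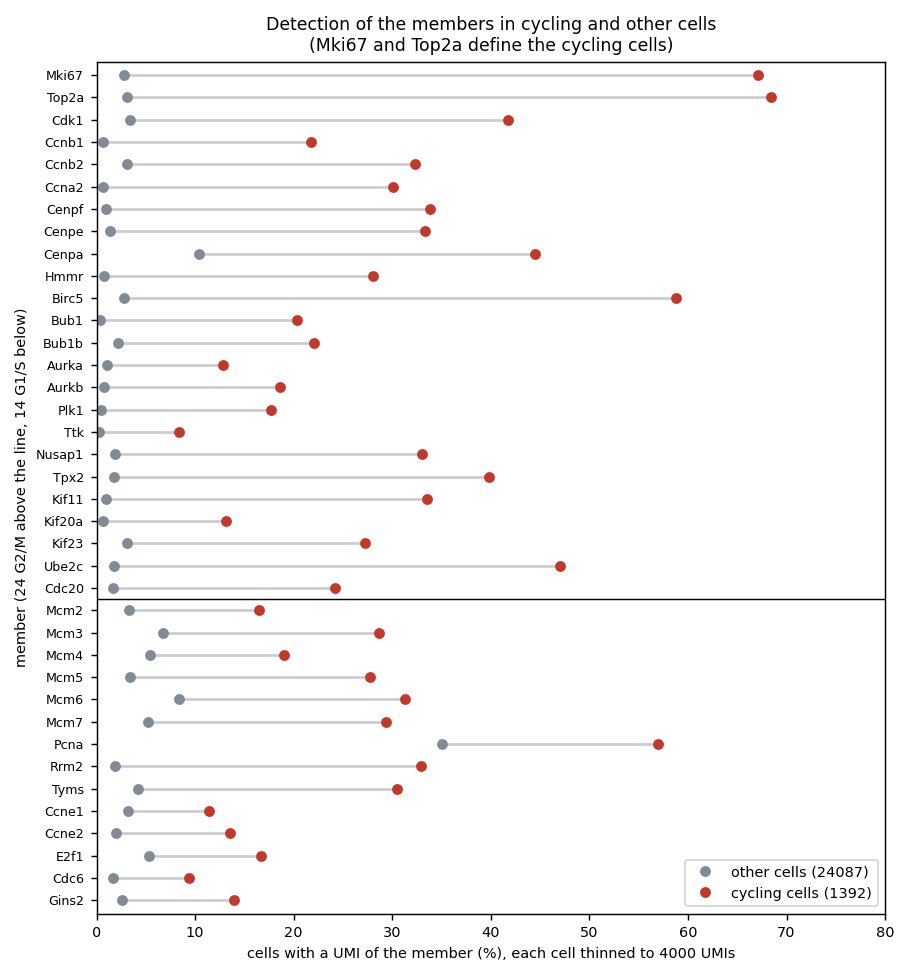
Percent of cells with at least 1 UMI of each member after thinning to 4000 UMIs per cell, in cycling cells and in all other cells, all 4 libraries together. Mki67 and Top2a define the cycling cells. G2/M members such as Birc5 (58.8% against 2.76%) are wide apart, whereas Pcna is found in 35% of the other cells.

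In levels, the fold between cycling and other cells had a median of 27.8 over the 22 G2/M members other than Mki67 and Top2a, from 6.39 for Cenpa, the centromere histone, to 49.8 for Ube2c. Over the 14 G1/S members the median fold was 5.29, from 2.88 for Pcna to 20.6 for Rrm2. Those 22 G2/M members summed to 2530 CPM in cycling and 125 CPM in other cells, and the G1/S members to 1204 and 259 CPM. Cycling cells thus held 65% of all UMIs of the 22 G2/M members and 29.9% of those of the G1/S members, against 8.38% of all UMIs. The gap between the lists was favoured by the rule, which uses G2/M members alone. With Mki67 and Top2a, which the rule fixes, the G2/M sum was 3345 against 141 CPM. The G2/M sums of classes and lineages below include both genes. Doublets were called in 1.72% of cycling and 2.43% of other cells. Cycling mesenchymal cells kept the mesenchymal transcription factor Prrx1 at 534 CPM (572 in the other mesenchymal cells), with the macrophage gene Cd68 at 10.9 against 10.8 CPM. Of the mesenchymal markers, Postn was at 2041 against 3862 CPM and Col14a1 at 165 against 596 CPM, in cells that came from the clusters in different shares.

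The cycling share differed widely between cell types. It was highest in neutrophil-like cells at 46.8% of cells (control_4d 42.9%, control_7d 25%, RA_4d 54.5% and RA_7d 44.7%, the order kept below). These cells led with Camp and Ngp, genes of granule proteins made in the bone marrow stages of neutrophils. Their median depth was 24261 UMIs. The filter left out cells below 4000 UMIs or 2000 genes, so the share describes the kept neutrophil-like cells and not all neutrophils of the callus. Osteoclast-like cells followed at 25.2% (28.2%, 13.3%, 30% and 14.3% in the same order, the last from 2 of 14 cells). They are named for markers of the myeloid cells that resorb bone and calcified cartilage, and precursors were not named apart. A cluster of 94 cells led by Mcpt8, Prss34 and Cpa3, genes of basophils and mast cells, had 16%. Its score was 3.92 for mast cell markers and 3.77 for B cell markers, and Igkc and Ly6d were also among its leading genes. Its values are therefore not given to one cell type.

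Among mesenchymal cells the share was highest in a cluster led by Timp1, Tnc and Col5a3, at 13.4% (25%, 11.3%, 27.8% and 7.44%). Doublets were called in 12.2% of its cells, and the share without them was 14.5% (12.4 to 16.9). Chondrocyte-like cells came next at 8.77% (14%, 8.57%, 22.7% and 7.24%). Their 4 dpf values rest on 6 of 43 cells in control_4d and 5 of 22 in RA_4d, and both counts were 0 when thinned to 4000 UMIs. This cluster scored 5.30 for chondrocyte and 3.39 for osteoblast markers, with Ibsp among its leading genes. No class was named for osteoblasts, so such cells may be counted here. Mesenchymal progenitor-like cells had 3.34% (5.78%, 4.06%, 6.78% and 1.14%). Fibroblast precursor-like cells had 3.42% and tenocyte precursor-like cells 0.85% (0 of 136 cells in control_4d, where 3 counts, the limit taken for a count of 0, would be 2.21%). Fibroblast-like cells had 0.652%, the lowest of the 21 classes within the filter. In the fibroblast-like cluster led by Myoc and Abca8a, 1 of 1471 cells was cycling (0.068%) at a median of 19620 UMIs, a depth above that of the monocyte-like cells, of which 10% were cycling.

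Other myeloid cells spanned a narrower range. Monocyte-like cells had 5.04%, 12.1%, 15% and 3.8% in the 4 libraries, Arg1 macrophage-like cells 4.29%, 2.58%, 4.83% and 0.628%, and dendritic-like cells 4.3% over all. Macrophage-like cells with the complement genes C1qa to C1qc had 1.8%. Blood endothelial-like cells (8.72%, 6.3%, 9.96% and 1.99%) divided by cluster. The capillary cluster led by Gpihbp1 and Prnd had 10.6% and the venular cluster led by Selp and Vwf 0.624%, at medians of 19074 and 13823 UMIs. Muscle-like cells (Pax7, Myog) had 11%, lymphatic endothelial-like cells 10%, Schwann-like cells 9.67%, T or NK-like cells 7.49% and pericyte or smooth muscle-like cells 2.62%. The order depended in part on the upper limits of the filter and on depth. Without the upper limits the Timp1 cluster was at 33.6%, above osteoclast-like cells (28.4%) and the Mcpt8 cluster (21%) and below neutrophil-like cells (54.7%). Mesenchymal progenitor-like cells were then at 8.51%, and tenocyte precursor-like cells (1.39%) came below fibroblast-like cells (1.46%). The thinned shares that follow are of cells within the limits. Thinned to 10000 UMIs, with shallower cells left out, the share was 36.5% in neutrophil-like cells, 30% in the Mcpt8 cluster (40 cells), 25.3% in T or NK-like cells (166 of 721 cells deep enough), 16.3% in osteoclast-like cells, 6.37% in the Timp1 cluster and 5.78% in chondrocyte-like cells. Thinned to 4000 UMIs, where no cell was left out, neutrophil-like cells stayed above these classes at 18.7%. Osteoclast-like cells (5.64%) were then above T or NK-like cells (3.88%), and the Timp1 cluster (1.67%) came below the chondrocyte-like cells (2.1%).

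**Figure D2:**
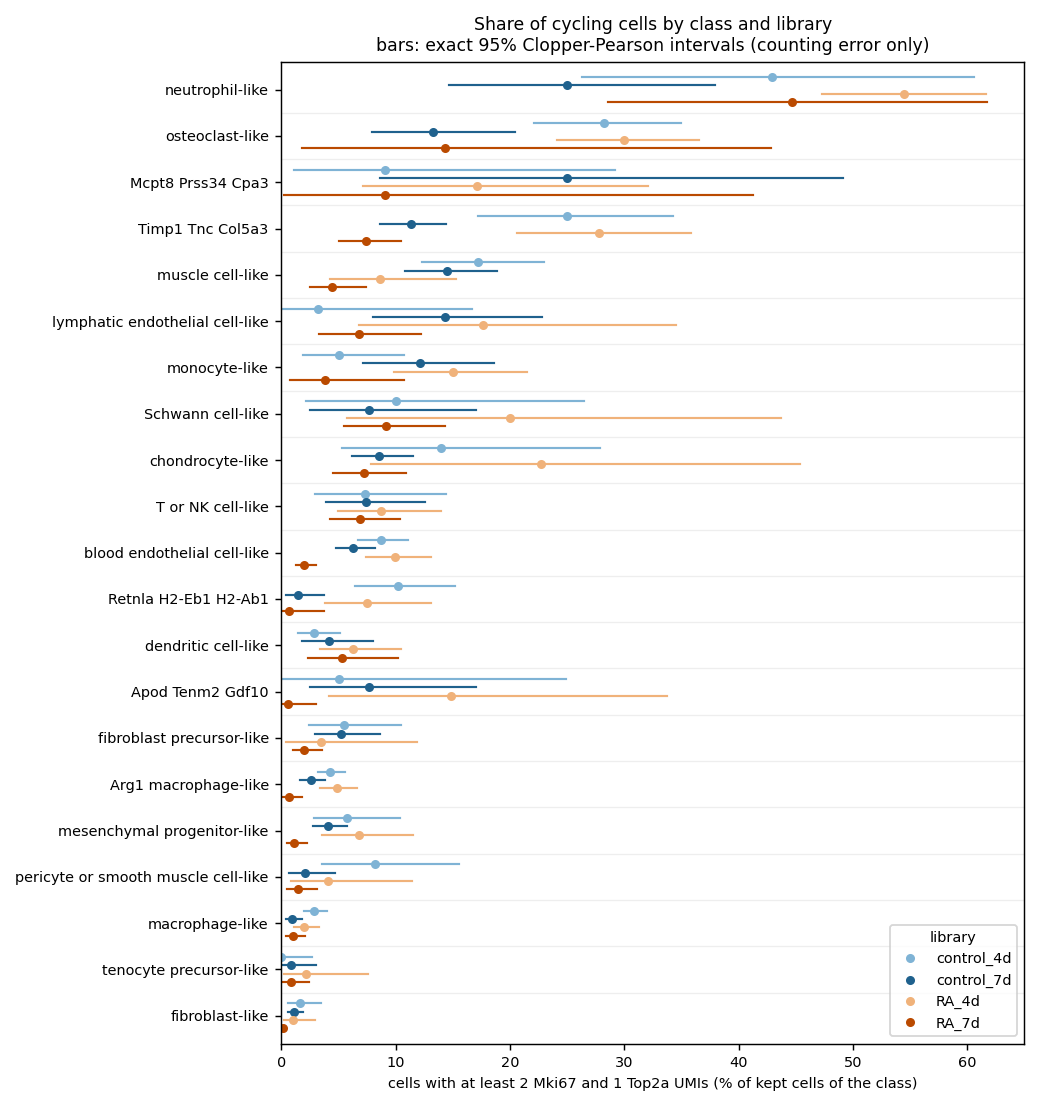
Cycling share in percent of cells for each class and library, with exact 95% intervals. Neutrophil-like cells reach 54.5% in RA_4d, fibroblast-like cells lie at 0.119% to 1.61%, and in mesenchymal progenitor-like, Arg1 macrophage-like and blood endothelial-like cells RA_7d lies lowest.

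Summed levels of the members ranked the classes in a partly different order. The G2/M sum was 1625 CPM in neutrophil-like cells, 1508 in the Mcpt8 cluster, 1083 in osteoclast-like cells, 1043 in Schwann-like cells and 927 in monocyte-like cells. The Timp1 cluster, whose cycling share was above those of Schwann-like and monocyte-like cells, had 675 CPM, and fibroblast-like cells were lowest at 78.9 CPM. Of the 24 G2/M members, 23 were lowest in fibroblast-like cells; the exception, Nusap1, which binds spindle microtubules, was lowest in macrophage-like cells (6.28 CPM, against 7.84 in fibroblast-like cells). Of all 38 members, 14 were highest in neutrophil-like cells, 10 in the Mcpt8 cluster and 5 in osteoclast-like cells. Mki67, a protein coating mitotic chromosomes, spanned 4.8 CPM in fibroblast-like to 215 CPM in neutrophil-like cells, and Ube2c 3.43 to 158 CPM in the same pair.

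Some members were highest elsewhere. Cenpa was highest in dendritic-like cells (131 CPM) and was at 107 CPM in monocyte-like and 65.1 CPM in macrophage-like cells, although 1.8% of the macrophage-like cells were cycling. Kif23, a kinesin of cytokinesis, was highest in T or NK-like cells (47.8 CPM). The mitotic checkpoint kinase Bub1b was highest in osteoclast-like cells (56.9 CPM), as were the helicase subunits Mcm5 (68.1 CPM) and Mcm6 (135 CPM) and the factor E2f1. Schwann-like cells had the highest Cenpf and Hmmr, which act at kinetochores and on the spindle, and a ratio of G2/M to G1/S sum of 2.47.

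The G1/S sum spanned less, from 169 CPM in fibroblast-like and tenocyte precursor-like cells to 925 CPM in the Mcpt8 cluster, with 828 CPM in neutrophil-like, 814 CPM in osteoclast-like and 595 CPM in T or NK-like cells. Gins2, a subunit of the replicative helicase, varied least, at 6.2 to 22.9 CPM (3.69-fold), closely followed by Pcna, from 61.4 CPM in fibroblast precursor-like to 227 CPM in T or NK-like cells, a range of 3.7-fold. Pcna was at 216 CPM in Arg1 macrophage-like cells, near its highest level, where 3.41% of cells were cycling. Tyms, the thymidylate synthase, was at 62.2 CPM in lymphatic and 49 CPM in blood endothelial-like cells, and at 4.82 CPM in macrophage-like cells. Over 69 groups of class and library with at least 50 cells, the correlation (Pearson) of a member with the sum of the other members of its list ran from 0.726 (Cenpa) to 0.968 (Mki67) in the G2/M members and from 0.449 (Tyms) to 0.944 (Mcm3) in the G1/S members. Tyms (0.687), Rrm2 (0.819 against 0.778), Gins2 (0.642 against 0.615) and Bub1b (0.843 against 0.814) correlated more with the sum of the other list than with their own. The groups share the 4 libraries, and these values are descriptions.

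**Figure D3:**
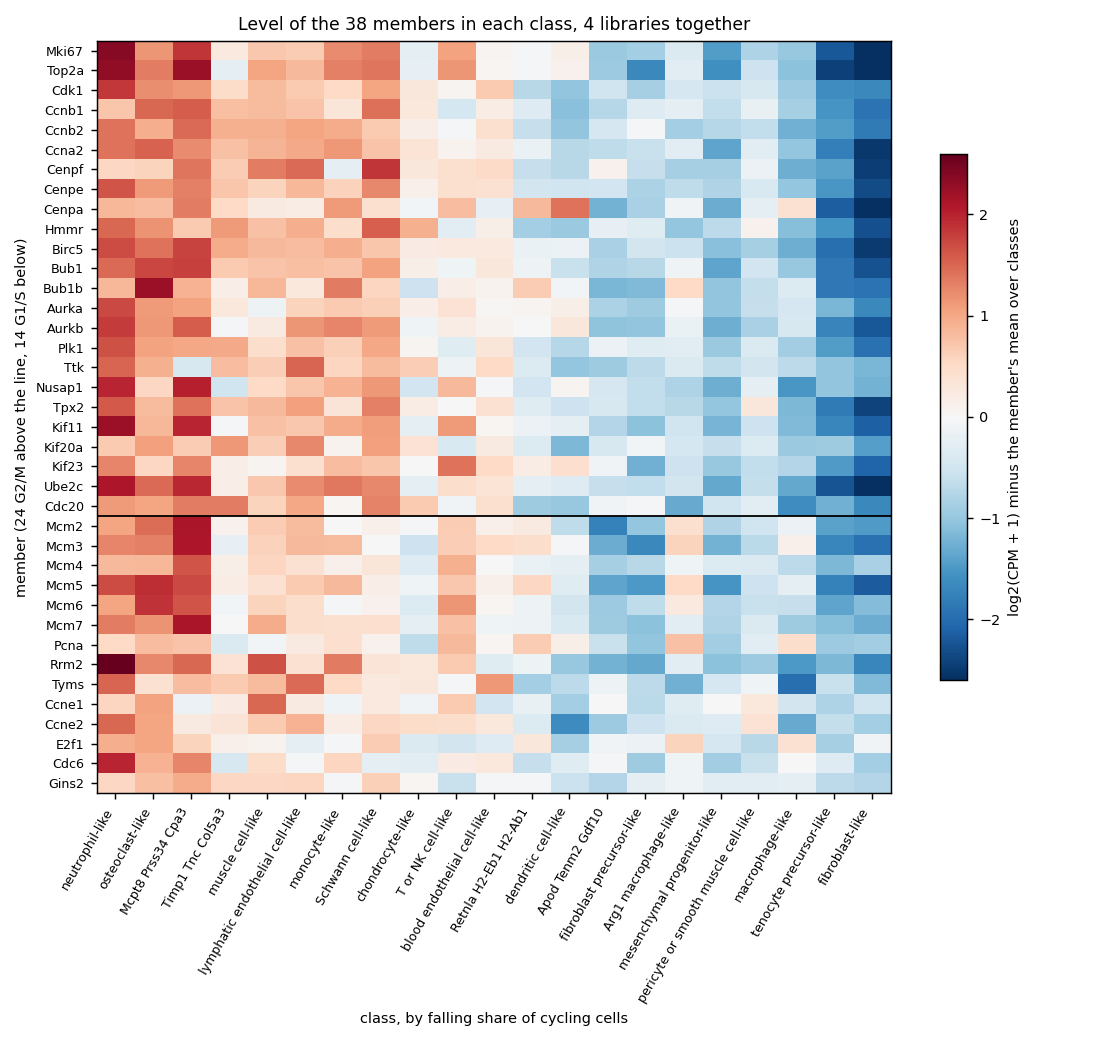
Level of each of the 38 members in the 21 classes, all libraries together, as log2(CPM + 1) minus the member's mean over classes. Columns of neutrophil-like, osteoclast-like and Mcpt8 cluster cells are high over most rows, the fibroblast-like column is low, and Cenpa is high in dendritic-like cells.

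At 7 dpf the cycling share was lower in RA than in control callus in each of the 3 large lineages. In mesenchymal cells 75 of 4157 cells were cycling in RA_7d (1.8%) and 156 of 3259 in control_7d (4.79%), a ratio of 0.377 (0.282 to 0.5). In myeloid cells, neutrophil-like cells not included, the share was 1.54% (24 of 1555) against 3.01% (79 of 2628), a ratio of 0.513 (0.311 to 0.82). In endothelial cells it was 2.56% (32 of 1251) against 7.14% (66 of 924), a ratio of 0.358 (0.227 to 0.554). Muscle-like cells showed 4.46% (14 of 314) against 14.5% (45 of 311), a ratio of 0.308 (0.156 to 0.572).

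By class, 18 held 50 cells or more in control_7d as well as in RA_7d, and in 15 of them the share was lower in RA_7d. The interval of the ratio lay below 1 in 7 classes, namely mesenchymal progenitor-like (0.281), Arg1 macrophage-like (0.244), blood endothelial-like (0.317), fibroblast-like (0.111), fibroblast precursor-like (0.379) and muscle-like cells and the cluster led by Apod, Tenm2 and Gdf10 (0.0718, from 1 of 181 cells in RA_7d, with doublets called in 27.6% of its cells). Chondrocyte-like cells (7.24% against 8.57%, ratio 0.845, 0.472 to 1.47) and T or NK-like cells (6.87% against 7.41%, ratio 0.928, 0.432 to 2.08) could not be parted at these cell numbers. Schwann-like, dendritic-like and macrophage-like cells had higher shares in RA_7d, with intervals that took in 1. The largest blood endothelial-like cluster was the capillary one in control_7d (370 cells) and the venular one in RA_7d (391 cells, beside 371 capillary cells). Within the capillary cluster the share was 4.04% in RA_7d and 10.3% in control_7d.

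The cycling cells that were present carried close amounts of G2/M transcripts in mesenchymal cells. Over the 22 G2/M members that the rule did not use, the median cycling mesenchymal cell held 59 UMIs in RA_7d and 63.5 in control_7d, at 34255 and 32159 UMIs of all genes. In cycling myeloid cells these medians were 38.5 and 56, at 18520 and 24244 UMIs of all genes. In cycling endothelial cells they went the other way, at 100 in RA_7d (32 cells) and 69 in control_7d (66 cells). The depths there were 23472 and 23342 UMIs of all genes. As levels, the 22 members stood at 2769 CPM in RA_7d and 2630 CPM in control_7d in cycling mesenchymal cells, 2780 and 2961 CPM in myeloid and 3785 and 3549 CPM in endothelial cells. Thinned to 10000 UMIs, the shares at 7 dpf were 1.14% in RA against 2.55% in control mesenchymal cells, 1.76% against 3.83% in myeloid and 2.77% against 6.41% in endothelial cells. Thinned to 4000 UMIs they were 0.457% against 0.89%, 0.9% (14 of 1555) against 1.14% (30 of 2628) and 0.879% against 2.6%, so that the myeloid ratio was 0.789 in place of 0.513.

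The member sums moved the same way, the G2/M sum by more than the G1/S sum. The G2/M sum includes Mki67 and Top2a, so that it and the cycling share are not independent. It was not made without them for whole lineages or classes. In mesenchymal cells the G2/M sum was 358 CPM in control_4d and 320 CPM in control_7d, and 405 CPM in RA_4d and 145 CPM in RA_7d. The G1/S sum was 215, 258, 224 and 186 CPM in the same order. RA_7d was thus the lowest library on either list, with a log2 ratio to control_7d of −1.14 for G2/M and −0.47 for G1/S. The G2/M sum over the G1/S sum was 1.67, 1.24, 1.81 and 0.781, so that the G1/S members had more UMIs than the G2/M members in RA_7d and in none of the other libraries of these cells.

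In myeloid cells the G2/M sum was 484, 380, 569 and 230 CPM and the G1/S sum 493, 348, 555 and 281 CPM (control_4d, control_7d, RA_4d and RA_7d), with log2 ratios at 7 dpf of −0.72 and −0.31. In endothelial cells the G2/M sum was 681, 694, 701 and 335 CPM and the G1/S sum 458, 480, 399 and 320 CPM, with log2 ratios of −1.05 and −0.58. In both lineages RA_7d was the lowest of the 4 libraries on each list. By class the largest difference in a named mesenchymal class was in mesenchymal progenitor-like cells, whose G2/M sum was 269, 287, 294 and 85.5 CPM (log2 ratio −1.74 at 7 dpf). Arg1 macrophage-like cells had 356, 326, 446 and 142 CPM (−1.20). In 5 of the 18 classes with enough cells the lists had opposite signs at 7 dpf. The log2 ratios of G1/S and G2/M were 0.36 and −0.13 in T or NK-like cells, 0.23 and −0.31 in Schwann-like cells and 0.27 and −0.60 in the Retnla cluster. They were −0.22 and 0.18 in tenocyte precursor-like cells, where the G2/M sum was the higher one in RA_7d. Only 3 of 361 of these cells were cycling in RA_7d and 2 of 234 in control_7d. In dendritic-like cells the log2 ratios were −0.24 and 0.04, and the interval of the G2/M value (−0.08 to 0.17) took in no change.

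Single members were compared as log2 of CPM plus 1, which understates the change of low genes. A member was counted past a difference of 1.5-fold on that scale. Mki67 and Top2a, which define a cycling cell, are among the members counted. In mesenchymal cells at 7 dpf, 28 of 38 members were at least 1.5-fold lower in RA, where 4.45% of all genes counted were. These were 23 of 24 G2/M and 5 of 14 G1/S members, and none was 1.5-fold higher, where 4.54% of genes were. In myeloid cells 23 were lower (18 G2/M and 5 G1/S; background 3.27%), and in endothelial cells 31 (23 G2/M and 8 G1/S; background 3.46%). None was higher in either lineage (backgrounds 4.28% and 3.94%). The median log2 ratio of the G2/M members was −1.0 in mesenchymal, −0.88 in myeloid and −0.97 in endothelial cells, and that of the G1/S members −0.56, −0.46 and −0.63, beside medians of all genes between −0.029 and 0.006.

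Of the G2/M members, 16 were past the fold in all 3 lineages. They included the cyclins of mitosis. Ccnb1 was at 9.32, 7.92, 11.2 and 2.97 CPM in mesenchymal cells (control_4d, control_7d, RA_4d, RA_7d), 10.4, 7.14, 11.4 and 2.52 CPM in myeloid cells, and 14, 13.7, 14.4 and 5.05 CPM in endothelial cells. In each lineage RA_7d stood below the other libraries, with log2 ratios to control_7d of −1.17, −1.21 and −1.28. Ccna2, cyclin A2, showed the largest difference among myeloid cells, 2.68 against 9.56 CPM at 7 dpf (−1.52). The anaphase pair was lower too, with Ube2c at 57.7, 66.3, 60.8 and 23 CPM and Cdc20, the activator of the anaphase-promoting complex, at 23.9, 20.4, 24.6 and 8.48 CPM in endothelial cells.

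Birc5 was at 42.1, 31.3, 40.2 and 11.7 CPM in mesenchymal cells (control_4d, control_7d, RA_4d and RA_7d), the largest difference there (−1.35 at 7 dpf), and at 40.1, 32.4, 44.3 and 12.2 CPM in myeloid cells (−1.34). The spindle genes Hmmr (−1.17, −1.20 and −1.21 in mesenchymal, myeloid and endothelial cells) and Tpx2, which starts microtubule growth and activates Aurora A (−1.17, −0.90 and −1.12), and the mitotic kinase Plk1 (−1.13, −1.03 and −1.02) were lower in each lineage. The checkpoint kinase Bub1 was at 9.01, 10.7, 10.7 and 4.03 CPM in endothelial cells (−1.22). Top2a, the topoisomerase that untangles sister chromatids and a part of the rule for cycling cells, was at 88.2 against 44 CPM in endothelial, 28 against 14.5 CPM in mesenchymal and 45.7 against 22.1 CPM in myeloid cells at 7 dpf.

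The exceptions lay mostly in myeloid cells, where Mki67, Cenpa, Bub1b, Aurka, Aurkb and Kif23 were not past the fold. Cenpa was at 73.1, 70, 67.6 and 72 CPM in myeloid cells, a range within which the 4 libraries stayed close, whereas it was at 42, 30.8, 37.6 and 11.7 CPM in mesenchymal cells (0.04 against −1.32 at 7 dpf). Kif23 was at 16.5, 12.5, 17.7 and 11.8 CPM in myeloid cells. Mki67 was at 20 against 29.3 CPM at 7 dpf in these cells (−0.53). In mesenchymal cells Nusap1 (8.6 against 11 CPM) and in endothelial cells the checkpoint kinase Ttk (2.95 against 4.88 CPM) did not pass.

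Among the G1/S members 3 were past the fold in all 3 lineages. Mcm5 was at 8.1, 9.88, 9.89 and 4.93 CPM in mesenchymal, 30.3, 15.7, 37.4 and 9.65 CPM in myeloid and 24.1, 24.3, 22.2 and 11.5 CPM in endothelial cells. The other two were Mcm2 (−0.85, −0.60 and −0.59) and Tyms (−0.82, −0.90 and −0.95). In myeloid cells Rrm2 differed most among the G1/S members, at 3.88 in RA_7d against 10.3 CPM in control_7d (−1.21).

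Pcna, Ccne1, Ccne2, E2f1 and Cdc6 passed the fold in no lineage. E2f1, one of the E2F factors, was at 13.6, 13.9, 14.5 and 13.7 CPM in mesenchymal cells, where no library stood apart, and at 14.1, 14.1, 14.4 and 9.24 CPM in endothelial cells. Pcna was at 64.2, 79, 69.7 and 69.5 CPM in mesenchymal cells and at 203, 169, 218 and 155 CPM in myeloid cells. Ccne1, cyclin E1 of the G1/S step, was at 8.24, 11.9, 8.77 and 7.86 CPM in mesenchymal cells (−0.54 at 7 dpf). Cdc6, which loads the MCM helicase, was at 5.39 in control_7d and 5.51 CPM in RA_7d in myeloid cells.

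**Figure D4:**
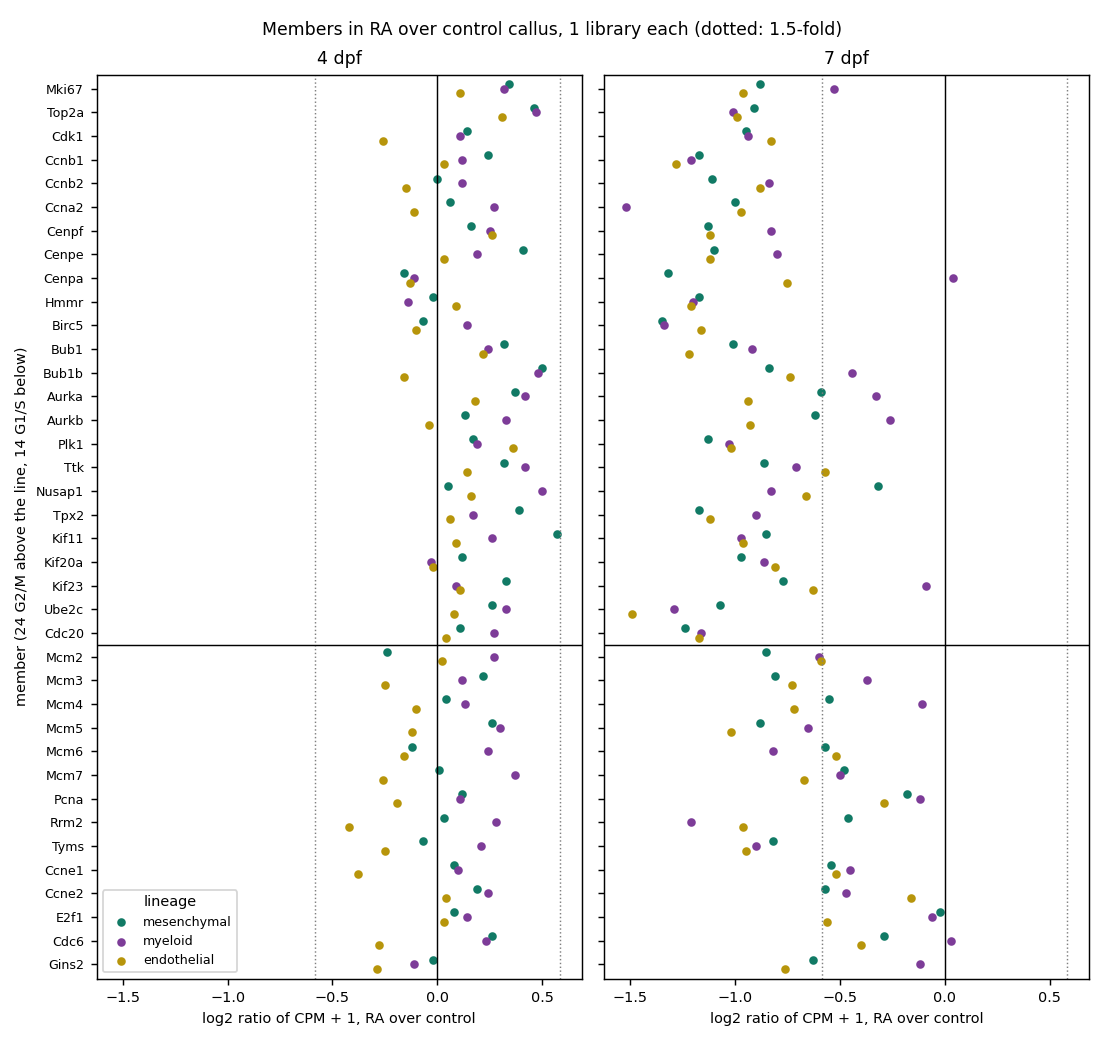
Log2 ratio of RA to control (CPM plus 1) for each member at 4 and 7 dpf in mesenchymal, myeloid and endothelial cells, with dotted lines at 1.5-fold. At 7 dpf 28, 23 and 31 of the 38 members lie below the lower line and Cenpa of myeloid cells lies at 0.04, whereas at 4 dpf no member lies outside the lines.

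At 4 dpf the shares were higher in RA_4d by less, and the members passed no fold. The share was 8.31% (68 of 818) against 5.81% (58 of 999) in mesenchymal cells, a ratio of 1.43 (0.994 to 2.07), 7.54% (164 of 2175) against 5.48% (181 of 3301) in myeloid cells, a ratio of 1.38 (1.11 to 1.71), and 10.5% (52 of 496) against 8.47% (58 of 685) in endothelial cells, a ratio of 1.24 (0.835 to 1.83). With the classes given the same weights in both libraries, the myeloid ratio was 1.12. Muscle-like cells went the other way at 8.62% against 17.2% (0.502, 0.222 to 1.04). Of the 15 classes with 50 or more cells in each library at 4 dpf, 9 had a higher and 6 a lower share in RA_4d, and the interval lay above 1 in 1 class, the monocyte-like cells (15% against 5.04%, ratio 2.97, 1.18 to 8.9). Their depth differed, with 26 of 160 cells below 10000 UMIs in RA_4d and 65 of 119 in control_4d. Thinned to 10000 UMIs, the shares were 11.9% (16 of 134 cells) in RA_4d and 9.26% (5 of 54) in control_4d. Thinned to 4000 UMIs, they were 6.88% and 1.68%, from 11 and 2 cycling cells.

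On the scale of CPM plus 1, which understates the change of low genes, no member was 1.5-fold lower or higher at 4 dpf in any of the 3 lineages. Of all genes counted, 2.59% were lower and 4.13% higher in mesenchymal, 2.2% and 1.29% in myeloid and 2.01% and 2.62% in endothelial cells. The largest differences upward were Kif11, the kinesin that pushes the spindle poles apart, in mesenchymal cells (10.2 against 6.56 CPM, 0.57) and Nusap1 in myeloid cells (19.4 against 13.4 CPM, 0.50). The largest downward was Rrm2 in endothelial cells (14 against 19.2 CPM, −0.42). Thinned to 10000 UMIs, the mesenchymal share was 3.45% in RA_4d (27 of 782 cells) and 2.49% in control_4d (24 of 962). Thinned to 4000 UMIs the order turned, at 0.611% and 0.801%, which rest on 5 and 8 cycling cells.

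The higher share at 4 dpf also depended on the filter. The limits of 50000 UMIs and 7000 genes left out 2395 cells, of which 48.1% were cycling, and these were 45.3% of all cycling cells. Among cells over a limit, 57.3% of control_4d and 57% of RA_4d were cycling, and 38.7% of control_7d and 25.3% of RA_7d. In mesenchymal cells of control_4d 84.9% of the cycling cells were over a limit. Without the upper limits the mesenchymal share was 23.9% in control_4d against 23.2% in RA_4d, and 8.96% in control_7d against 3.47% in RA_7d, so that the 4 dpf libraries came level (ratio 0.971) and RA_7d stayed below control_7d. In endothelial cells it was 14.8%, 8.32%, 16% and 2.84% (control_4d, control_7d, RA_4d, RA_7d), and in myeloid cells 6.38%, 3.11%, 8.54% and 1.6%.

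The cycling cells over a limit had a median of 62406 UMIs, with the G2/M members at 2963 CPM and the G1/S members at 980 CPM, beside 3345 and 1204 CPM within the limits. Doublets, called with these cells included, made up 5.64% of the cycling and 15.5% of the other cells over a limit, and 1.44% and 2.5% of the cycling and other cells within. Without called doublets the mesenchymal shares were 23.4%, 9.04%, 23.2% and 3.44%. The cycling mesenchymal cells over a limit had Cd68 at 14 CPM and Pecam1, the endothelial adhesion gene, at 35.2 CPM, beside 10.9 and 33.7 CPM within. Cycling endothelial cells over a limit had more transcripts of other lineages, with Prrx1 at 29.6 against 2.38 CPM, Cd68 at 32.8 against 7.81 CPM and C1qa at 67.9 against 5.27 CPM within, and doublets called in 10% against 2.4%. The part of these transcripts in the shares without limits was not tested. In the Timp1 cluster the share without upper limits was 55.2% in control_4d against 51.8% in RA_4d, and 21.7% in control_7d against 14.4% in RA_7d.

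**Figure D5:**
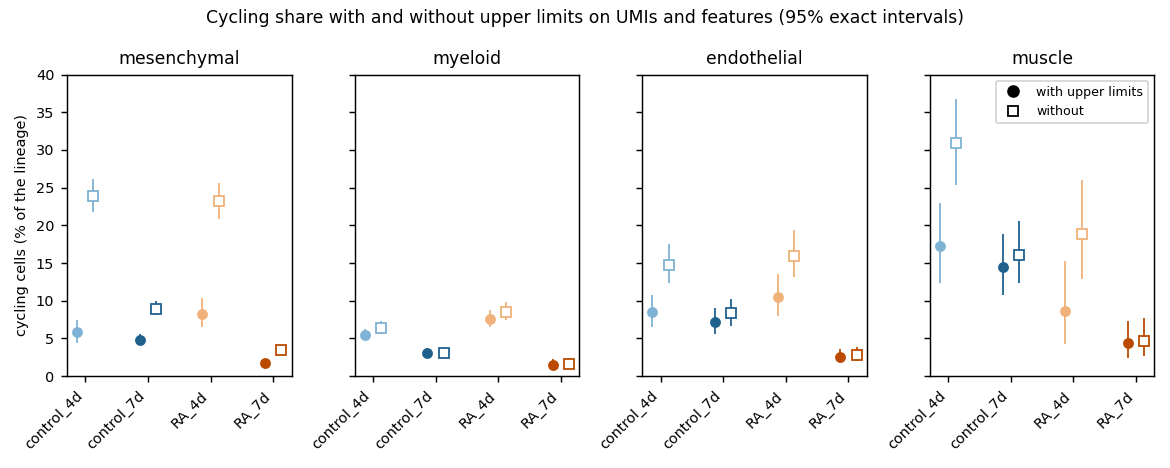
Cycling share in percent of cells with the study's upper limits on UMIs and genes and without them, in mesenchymal, myeloid, endothelial and muscle-like cells of the 4 libraries, with exact 95% intervals. In mesenchymal cells the share without limits reaches 23.9% in control_4d and 23.2% in RA_4d, and stays lowest in RA_7d at 3.47%.

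Within the filter and at full depth, the cycling share was lower at 7 than at 4 dpf, by more in the RA than in the control libraries. With 1 library per condition this contrast could not be tested. The ratio of 7 to 4 dpf was 0.217 (0.154 to 0.306) in mesenchymal, 0.205 (0.127 to 0.315) in myeloid and 0.244 (0.152 to 0.386) in endothelial cells of the RA libraries. In the control libraries it was 0.548 (0.415 to 0.718) in myeloid cells. In mesenchymal (5.81% to 4.79%) and endothelial cells (8.47% to 7.14%) it was 0.824 (0.606 to 1.13) and 0.844 (0.584 to 1.22). Both of these intervals took in 1. Thinned to 10000 UMIs, control shares at 4 and 7 dpf were 2.49% and 2.55% in mesenchymal and 5.16% and 6.41% in endothelial cells, and so did not fall. In myeloid cells they were 4.48% and 3.83%. RA shares so thinned were 3.45% and 1.14%, 6.36% and 2.77%, and 5.8% and 1.76% in the same order. Without the upper limits, control shares at 4 and 7 dpf were 23.9% and 8.96% in mesenchymal and 14.8% and 8.32% in endothelial cells. In myeloid cells they were 6.38% and 3.11%. RA shares were 23.2% and 3.47%, 16% and 2.84%, and 8.54% and 1.6% in the same order. The fall was thus again larger in RA in each lineage. The control mesenchymal share then moved more than the myeloid one. With the limits, the interval of the 7 to 4 dpf ratio lay below 1 in 7 classes of RA and 6 of control callus, and above 1 in none.

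Other genes of the cell cycle, in 8 lists by role, were counted in the same way at 7 dpf. Of 14 spindle, kinetochore and cytokinesis genes, 13 were at least 1.5-fold lower in RA in mesenchymal, 10 in myeloid and 13 in endothelial cells, against the same backgrounds as above. Spc24, a subunit of the Ndc80 kinetochore complex, was at 4.67 against 15.9 CPM in mesenchymal cells (−1.58). Nucleotide supply and S phase chromatin genes passed in 3, 3 and 7 of 9, replication origin and fork genes in 2, 1 and 6 of 16, mitotic entry genes in 5 and 4 of 9 (mesenchymal and endothelial) and 3 of the 8 counted in myeloid cells, and condensins in 1, 1 and 2 of 5. Pocket proteins and E2F factors passed in 1, 0 and 1 of 10. Counts of 0 or 1 gene in a list are not read as a change. No gene of the 8 lists was 1.5-fold higher in RA at 7 dpf in these lineages.

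Of the 6 listed G1 cyclins and kinases, none passed the fold downward in any of the 3 lineages (backgrounds 4.45%, 3.27% and 3.46%). This count is near the background. Ccnd1, cyclin D1, was at 25.3 against 33.1 CPM in mesenchymal (−0.38), 34.8 against 48.6 CPM in myeloid (−0.47) and 147 against 201 CPM in endothelial cells (−0.45). Ccnd2 was higher in RA_7d mesenchymal cells (162 against 141 CPM, 0.20), and so was Ccnd3 in myeloid cells (62.3 against 46.5 CPM, 0.41).

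Of 7 kinase inhibitors, which hold cells in G1, 2 were past the fold in mesenchymal and 2 in endothelial cells, and none of the 5 counted in myeloid cells (backgrounds 4.45%, 3.46% and 3.27%). These were the inhibitors of the Ink4 locus, both lower in RA. Cdkn2a was at 4.19 against 13.1 CPM (−1.44, beyond the −1.35 of Birc5, the member that differed most there) and Cdkn2b at 8.98 against 20.5 CPM (−1.11) in mesenchymal cells, and at 0.806 against 2.44 CPM (−0.93) and 2.74 against 6.55 CPM (−1.01) in endothelial cells. Cdkn1a, p21, was at 118 against 89.2 CPM in mesenchymal cells (0.40).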

How the data were processed

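Single-cell RNA-Seq libraries of 4 callus pools were analysed, 1 for each condition. The authors made the deposited UMI counts per gene and cell with Cell Ranger 7.0.1 on mm10 from Chromium 3′ v3.1 libraries. The pools are given as 4 calluses in the series record and as 3 in the methods. Cells were filtered as in the study, and 108438906, 141714572, 83405494 and 156567619 UMIs were kept in control_4d, control_7d, RA_4d and RA_7d. Clusters were rebuilt in Seurat 5.3.0 (R 4.3.3) by CCA integration on 2000 variable genes, 15 components and resolution 1, with 426 genes left out. These were the listed cell cycle genes and genes correlated with the members' sum (r above 0.2), except cell type markers, which were kept. Naming thresholds and resolution were set after clusters were seen. Doublets were called by Scrublet (scanpy 1.11.5) and kept in the main values. UMIs were summed over cells in Python 3.11.15, shares given Clopper-Pearson and ratios exact conditional intervals (scipy 1.17.1). Intervals of the member sums took UMIs as independent and are too narrow, since a cycling cell gives many of them. Single genes needed 50 UMIs over both libraries. The members and lists were chosen with earlier results of these data known. All members could be named, with the 5 largest differences each way, listed genes past 1.5-fold, D cyclins and kinase inhibitors, and the 5 genes most like each sum. The statistics were tested on simulated data. Alternatives were other cell filters, doublets left out, thinning, other cycling rules, class assignment by own markers, clustering with cycle genes or without integration, a fixed class mix, means over cells and TMM scaling (edgeR 4.0.16).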

Additional observations from a re-analysis of the deposited data

Results flagged for a closer look

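Differences between time points were noted where the RA to control contrast pointed opposite ways at 4 and 7 dpf and both intervals were clear of no change. Intervals of the sums treat each UMI as a separate draw, although a cycling cell holds many. In mesenchymal cells 357 cycling cells held 57.9% of the G2/M UMIs. The intervals of the sums are therefore too narrow, and a small value clear of no change is not firm. Other contrasts turned with a 4 dpf interval that took in no change. These were the share ratios of mesenchymal (1.43 and 0.377) and endothelial cells (1.24 and 0.358) and the endothelial G2/M sum (log2 ratio 0.04 and −1.05). The difference between the contrasts was not tested in any of them, since each condition had 1 library. In mesenchymal cells the log2 ratio of the G1/S sum was 0.06 at 4 dpf and −0.47 at 7 dpf, and that of the G2/M sum 0.18 and −1.14. Without the upper limits on UMIs and genes the 4 dpf values were −0.15 and −0.14, so that the contrasts no longer pointed opposite ways. In myeloid cells the ratio of the cycling shares was 1.38 at 4 dpf and 0.513 at 7 dpf. The log2 ratio of the G1/S sum in these cells was 0.17 and −0.31, and that of the G2/M sum 0.23 and −0.72. At a fixed class mix the 4 dpf values were 1.12 for the share ratio, 0.08 for G1/S and 0.0 for G2/M. Osteoclast-like cells were 223 of the 2175 myeloid cells in RA_4d and 202 of the 3301 in control_4d.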

How the results depend on the processing

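At 7 dpf the ratio of cycling shares lay below 1 under each of the 12 alternatives in each lineage (mesenchymal 0.293 to 0.515, myeloid 0.413 to 0.789, endothelial 0.337 to 0.432), and the log2 ratio of either sum lay below 0 under each of 10. The 4 dpf values were less firm, and the cause was not tested except where the alternative itself removes cells. The mesenchymal share ratio at 4 dpf was 0.971 without upper limits, 0.98 with looser limits and 0.763 thinned to 4000 UMIs, and at 7 dpf 0.514 thinned and 0.515 at a fixed class mix. The myeloid one at 4 dpf was 1.87 thinned and 1.12 at a fixed class mix. The endothelial one at 4 dpf was 0.924 where 5 other G2/M members defined a cycling cell. Over all cells at 4 dpf it was 1.27 without neutrophil-like cells, 1.26 without upper limits and 1.08 without either, all chosen after seeing the data, as were resolution 0.4 and the single-member counts without upper limits, without doublets and under TMM. Counts of members past the fold stayed within 1.5 times in 48 of 48 cases. Many of these set a count of 0 beside a main count of 0, as at 4 dpf and for members higher at 7 dpf. Lowering the background to 10 UMIs could not move a count, since all 38 members were already counted.

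Mesenchymal sums at 4 dpf turned sign. G1/S was −0.15 without upper limits, −0.15 with looser limits, −0.02 by own markers, −0.03 at a fixed class mix and −0.01 under TMM, and G2/M was −0.14, −0.13 and −0.04 in the same order of the leading 3, 0.00 at a fixed mix and 0.10 under TMM. At 7 dpf G1/S was −0.58 without upper limits and with looser limits, −0.37 at a fixed mix, and −0.44 as a mean over cells and under TMM, and G2/M was −1.05 without upper and with looser limits, −1.11 with cycle genes kept in clustering and under TMM, −0.89 at a fixed mix and −1.22 as a mean. Myeloid G1/S at 4 dpf was 0.14 with looser limits and TMM, 0.09 with cycle genes kept and 0.08 at a fixed mix, and G2/M 0.16 without upper limits and with cycle genes kept, 0.15 looser, 0.29 by own markers, 0.00 at a fixed mix, 0.34 as a mean and 0.21 under TMM. At 7 dpf G1/S was −0.25 by own markers, −0.26 with cycle genes kept, −0.19 at a fixed mix and −0.22 as a mean, and G2/M −0.80 without upper limits, −0.77 looser, −0.60, −0.57, −0.49 and −0.47 in those 4. Endothelial G2/M at 4 dpf was 0.16 without upper limits, 0.17 looser and 0.12 as a mean. At 7 dpf G1/S was −0.64, −0.64 and −0.49 in those 3, and G2/M −1.16, −1.16 and, without integration, −1.12. Other values moved by less than their interval. No paired analysis was possible because each condition had 1 library. Neither leaving out a library nor a fit by batch was possible for the same reason.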

Other observations

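Genes outside the cell cycle lists with the levels most like the G2/M sum over the 69 groups of class and library were Cdca8 (Pearson r 0.964), Pclaf (0.959), Tacc3 (0.929), Ska1 (0.924) and Cdca3 (0.924). Cdca8 works with Birc5 and Aurkb in the chromosomal passenger complex, and Ska1 binds kinetochores to microtubules. Most like the G1/S sum were Brca1 (0.924), Mms22l (0.900), Hpf1 (0.898), Wdr76 (0.884) and Alyref (0.881). Brca1 and Mms22l act in the repair of DNA by recombination. The groups share 4 libraries, and the values describe them only.

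The genes that start and restrain G1 followed the classes in other orders than the members. Ccnd1 was highest in Schwann-like cells (406 CPM). Ccnd2 was at 593 CPM in pericyte or smooth muscle-like and 384 CPM in T or NK-like cells. Ccnd3 was at 265 CPM in the Mcpt8 cluster, 213 CPM in T or NK-like and 211 CPM in neutrophil-like cells, where 46.8% of cells were cycling. The inhibitor Cdkn1c was at 1257 CPM in muscle-like cells, of which 11% were cycling, and at 440 CPM in fibroblast-like cells, of which 0.652% were. Cdkn2a was highest in muscle-like cells at 32.4 CPM.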
